A study of Homo sapiens with 60 samples.

Results

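Tubulins are the building blocks of microtubules, and 10 tubulin genes were followed here in 1321N1 cells, an astrocyte-derived human cell line, during exposure to arsenic, cadmium, or mercury. The members were taken by gene symbol, without use of any measured value, and make up 10 of the 62703 genes in the count table. They are the α-tubulin genes TUBA1A, TUBA1B, and TUBA1C, the β-tubulin genes TUBB, TUBB2A, TUBB2B, TUBB3, TUBB4B, and TUBB6, and the γ-tubulin gene TUBG1. Cells were treated with 2.55 µM arsenic given as sodium metaarsenite, 2.3 µM cadmium given as cadmium chloride, or 20 µM mercury given as mercury chloride, or were left non-treated, and were lysed at 5 times (1.5, 3, 6, 12, or 24 h). Every one of the 20 groups had 3 libraries of reads from transcript 3′ ends, with 2215276 to 4404609 counts per library. Each metal was used at 1 concentration in 1 cell line, and every time point had its own non-treated libraries, which all metals shared. The study gives the treatments as triplicates, and it is unclear whether its mention of independent experiments covers these libraries, so p-values may measure only technical spread between them.

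Microtubules are polymers of α/β-tubulin dimers that grow from γ-tubulin ring complexes, and they carry cargo, shape the cell, and build the mitotic spindle. The mRNAs of α- and β-tubulin are known to be controlled by the amount of free tubulin dimer. When dimers are in excess, TTC5 binds the start of the tubulin chain as it leaves the ribosome and, through SCAPER and the CCR4-NOT deadenylase, the mRNA being translated is degraded. The comparison therefore asked whether the isotypes, which can share this control, moved together in metal-treated cells.

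Because this control reads the first residues of the protein, the first 24 coding bases of each member are shown, with the first 4 codons in capitals.

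TUBA1A: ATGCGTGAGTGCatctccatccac
TUBA1B: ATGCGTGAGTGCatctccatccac
TUBA1C: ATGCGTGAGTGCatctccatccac
TUBB: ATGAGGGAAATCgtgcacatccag
TUBB2A: ATGCGCGAGATCgtgcacatccag
TUBB2B: ATGCGTGAGATCgtgcacatccag
TUBB3: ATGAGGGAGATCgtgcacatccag
TUBB4B: ATGAGGGAAATCgtgcacttgcag
TUBB6: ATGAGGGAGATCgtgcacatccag
TUBG1: ATGCCGAGGGAAatcatcacccta

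The 3 α members had the same 24 bases, and their first 12 bases occurred in no other of 20102 genes with an annotated coding sequence. Among the β members, TUBB and TUBB4B shared their first 12 bases, which only TUBB8B also had, and TUBB3 and TUBB6 shared theirs with TUBB8. The first 12 bases of TUBB2A, TUBB2B, and TUBG1 each occurred in that gene only, and the control by free dimer has been described for α- and β-tubulin. These are matches of bases. Different codons can encode the same residue, so a mismatch does not by itself set a β member apart in the residues read. The sequences come from the GENCODE version 44 annotation of GRCh38, while the counts used version 43. The α genes are neighbours on chromosome 12, with TUBA1A at 49184686 to 49189080 and TUBA1B at 49127782 to 49131397 on the minus strand and TUBA1C at 49188736 to 49274600 on the plus strand. TUBB (30717435 to 30725538, plus strand), TUBB2A (3153497 to 3157544, minus strand), and TUBB2B (3223324 to 3231730, minus strand) lie on chromosome 6. TUBB3 lies on chromosome 16 (89921392 to 89938761), TUBB4B on chromosome 9 (137241287 to 137243707), TUBB6 on chromosome 18 (12307669 to 12344320), and TUBG1 on chromosome 17 (42609641 to 42615238), all on the plus strand. In the α genes the first coding exon ended right after the start codon, with 3 coding bases, whereas it held 57 coding bases in all 6 β genes and 49 in TUBG1.

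TUBA1B, a ubiquitous α isotype, was the most abundant member in non-treated cells, with a median of 5329 CPM (counts scaled to a common library size; range 4592 to 6147 over 15 libraries). Each transcript gives reads only near its 3′ end, so CPM was compared between genes without division by length. TUBB, the main β isotype of dividing cells, had a median of 3226 CPM (2854 to 4321), and TUBA1C followed with 2563 CPM (2333 to 2850.1). TUBB4B, a widely expressed β isotype, stood at a median of 825 CPM (737 to 939) and TUBB6 at 643 CPM (479 to 906), and these ranges overlapped. TUBA1A, the α isotype best known from developing neurons, had a median of 249 CPM (185 to 355). TUBG1, which nucleates microtubules, was next at 151 CPM (113 to 169.6), and TUBB2A, a β isotype abundant in neurons, came after it at 93.2 CPM (65.1 to 117), again with overlapping ranges. The neural isotype TUBB2B was near the limit of detection with a median of 0.70 CPM. Together the members took 1.07 to 1.52% of all counts. TUBA1B made up 62.4 to 69.9% of the counts of the α members and TUBB 63.5 to 72.8% of those of the β members over the 20 group means.

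TUBB3, the neuronal β isotype, could not be measured in this table. It had 9 counts in all 60 libraries and did not pass the filter, and 98.8% of the last 400 bases of its transcript overlap exons of a readthrough gene on the same strand. Reads that overlap 2 genes are left out in Union mode, so the low count is no statement on the expression of TUBB3. The other 9 members passed the filter for low counts. Near-identical copies can also compete for reads, since transcripts of other genes hold 42.7% of all 50-base stretches from the final 400 bases of TUBB2A, and 35.6% for TUBA1B, 29.3% for TUBB4B, and 13.7% for TUBA1A. No such stretch was shared for TUBA1C, TUBB, TUBB2B, TUBB6, or TUBG1.

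No tubulin gene passed the test at 1.5 or 3 h with any metal. Gene-wise log2 fold changes (LFC) against time-matched non-treated libraries were tested with the quasi-likelihood test of edgeR on 12341 genes, and a gene was called at an adjusted p under 0.05. Over both early time points, 0.105% of tests were called with arsenic, 0.101% with cadmium, and 1.06% with mercury, so few genes of any kind had changed. At an unadjusted p under 0.05, 1 member differed at 1.5 h and 1 at 3 h of arsenic, and none with cadmium or mercury. The share of all genes at this unadjusted threshold was not counted, so these numbers cannot be weighed. DESeq2 called no member at either time. TUBB levels in the early libraries spread widely within groups. After 1.5 h of arsenic, TUBB stood at 4057, 4516, and 2923 CPM, against 3067, 2854, and 3226 CPM in non-treated cells, and the library with the lowest value was within the non-treated range.

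**Figure D1:**
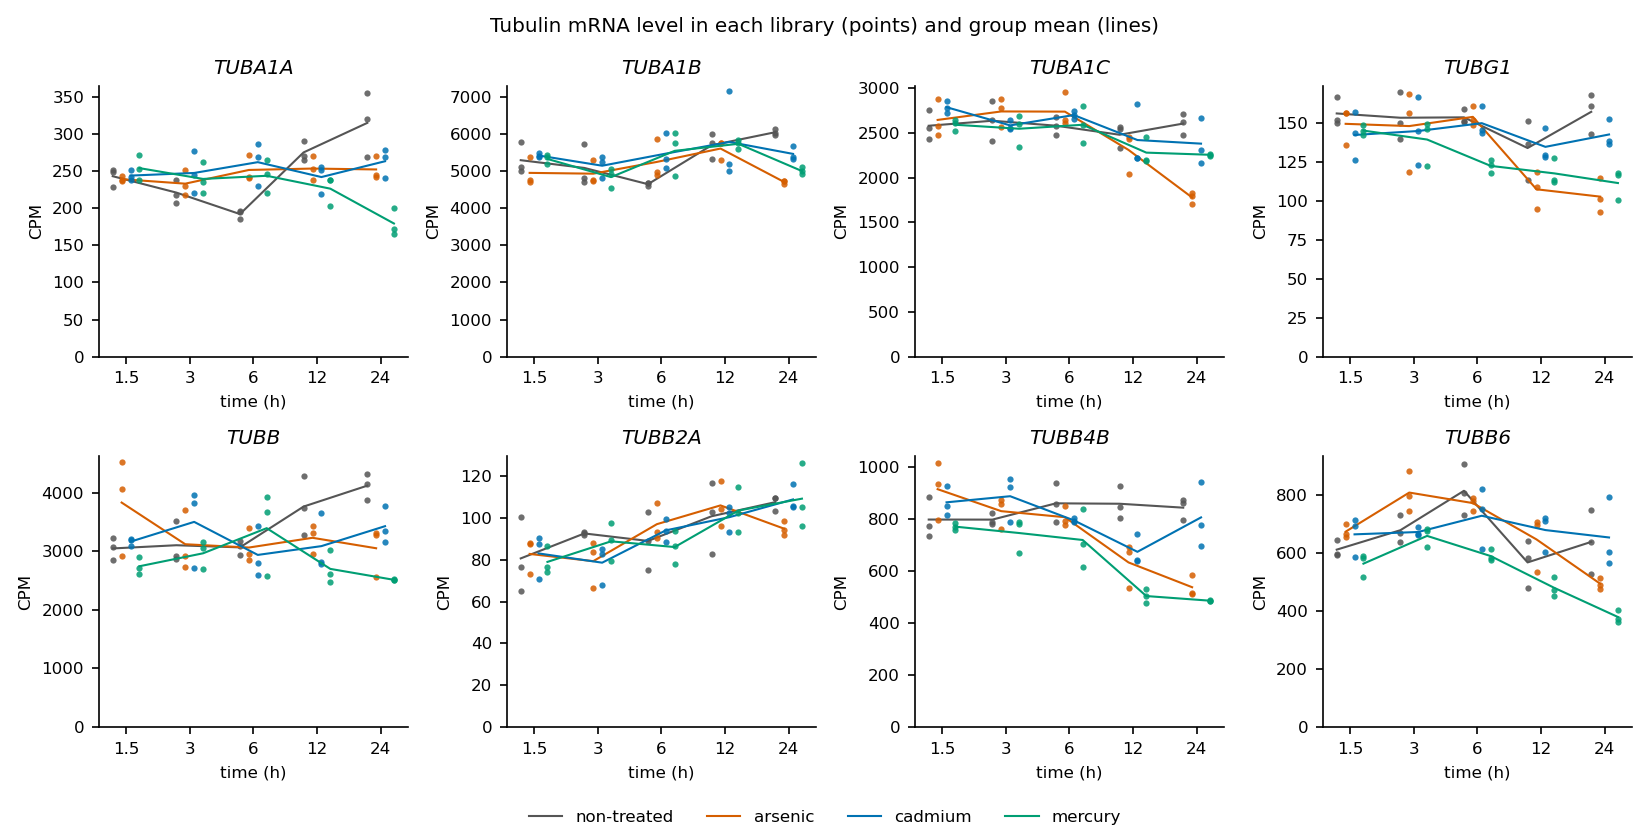
Levels of 8 tubulin genes in CPM (vertical axes, from 0) against time of treatment in h (horizontal axes, equal spacing), with points for libraries and lines for the mean of 3 libraries in non-treated, arsenic, cadmium, and mercury groups. TUBA1A in non-treated cells dips to a mean of 192 CPM at 6 h and reaches 315 CPM at 24 h, and TUBB4B and TUBB6 in mercury are below all non-treated libraries at 24 h.

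TUBA1A was the only member called higher at 6 h, and it was called with all 3 metals. Its levels were 272, 241, and 242 CPM with arsenic, 231, 269, and 287 CPM with cadmium, and 265, 247, and 219.9 CPM with mercury, against 196, 185, and 196 CPM in non-treated cells. Every treated library was above every non-treated library. Arsenic gave an LFC of 0.39 ± 0.10 (SE, adjusted p = 0.0246), cadmium one of 0.45 ± 0.10 (adjusted p = 0.00293), and mercury one of 0.34 ± 0.10 (adjusted p = 0.0168). Of all genes tested, 0.608%, 1.6%, and 4.49% were called higher in these comparisons. The same 3 non-treated libraries enter all of them, and their mean of 192 CPM was the lowest of the 5 non-treated groups, so the calls share their reference. The arsenic call was lost without arsenic replicate 1 and without any of the 3 non-treated libraries (highest adjusted p 0.207), the mercury call without mercury replicate 1 or non-treated replicate 2 (0.109), and the cadmium call without cadmium replicate 3 (0.0517).

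TUBB6 was called lower at 6 h with mercury, the earliest fall of any member. It measured 575, 613, and 582 CPM with mercury and 906, 732, and 807 CPM in non-treated cells, without overlap, for an LFC of -0.47 ± 0.11 (adjusted p = 0.00199). Of all genes, 2.99% were called lower in this comparison. The 2 more abundant α members did not follow TUBA1A past the threshold, with LFCs between 0.18 (arsenic) and 0.25 (mercury, adjusted p = 0.0570) for TUBA1B and between 0.01 and 0.09 for TUBA1C.

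At 12 h, TUBB4B was lower with every metal. Its level was 674, 693, and 535 CPM with arsenic, 744, 638, and 642 CPM with cadmium, and 503, 478, and 532 CPM with mercury, against 926, 806, and 847 CPM in non-treated cells. No treated library reached the non-treated range, and mercury was lowest. Arsenic gave an LFC of -0.44 ± 0.10 (adjusted p = 0.00232), cadmium one of -0.35 ± 0.10 (adjusted p = 0.0159), and mercury one of -0.77 ± 0.10 (adjusted p = 9.69e-09). Genes called lower made up 1.74% of all genes with arsenic, 2.99% with cadmium, and 7.16% with mercury. TUBB4B was the only member called with arsenic or cadmium. The cadmium call was lost without cadmium replicate 2, cadmium replicate 3, or non-treated replicate 1 (highest adjusted p 0.121), and the arsenic call was lost without arsenic replicate 3 (highest adjusted p 0.0755).

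Mercury also lowered TUBB and TUBA1A at 12 h. TUBB measured 2469, 2608, and 3023 CPM against 4284, 3735, and 3271 CPM, with no overlap, and its LFC was -0.48 ± 0.13 (adjusted p = 0.00508). The call was lost without non-treated replicate 1 (adjusted p = 0.0785), the highest of the non-treated libraries. TUBA1A had an LFC of -0.28 ± 0.10 (adjusted p = 0.0332), and this call was lost without the filter on low counts and without any 1 library other than mercury replicate 2 (highest adjusted p 0.224). TUBA1B and TUBA1C, which hold most of the α-tubulin mRNA, had LFCs of 0.01 and -0.12 and were not called.

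By 24 h of arsenic, 7 of the 9 tested members were lower and 1 was higher. The median LFC of the 9 members was -0.37, against 0.00 over all genes, of which 7.75% were called lower and 6.54% higher. All 3 α members fell. TUBA1B measured 4742, 4662, and 4736 CPM against 6047, 5976, and 6147 CPM, an LFC of -0.36 ± 0.09 (adjusted p = 0.00186). TUBA1C went from 2619.8, 2714, and 2477 CPM to 1709.5, 1798, and 1825 CPM, an LFC of -0.55 ± 0.08 (adjusted p = 5.24e-07). The arsenic libraries of both genes were below every non-treated library, whereas the highest of TUBA1A, at 246, 269.9, and 242 CPM, touched the lowest non-treated library at 269.8 CPM. Its LFC was -0.32 ± 0.10 (adjusted p = 0.0143), and the call was lost without arsenic replicate 1 or 3, without non-treated replicate 1 or 3, and in a fit of the 6 libraries alone (highest adjusted p 0.163).

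Among the β members, TUBB4B had the lowest LFC after 24 h of arsenic. It measured 586, 515, and 514 CPM against 864, 874, and 796 CPM, an LFC of -0.65 ± 0.10 (adjusted p = 7.95e-07). TUBB stood at 3284, 3307, and 2565 CPM against 4321, 4157, and 3882 CPM, an LFC of -0.43 ± 0.13 (adjusted p = 0.0136). The groups of both genes did not overlap, but the TUBB call was lost without arsenic replicate 3 or without non-treated replicate 1 (highest adjusted p 0.129). TUBB6 had an LFC of -0.37 ± 0.11 (adjusted p = 0.0136), which was lost without arsenic replicate 2 or non-treated replicate 2, and TUBB2A had -0.18 ± 0.13 (adjusted p = 0.383). TUBG1 fell together with the α and β members, from 161, 143, and 167 CPM to 101, 114, and 92.5 CPM, with an LFC of -0.61 ± 0.11 (adjusted p = 3.3e-05).

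TUBB2B was the member called higher after 24 h of arsenic, and it rested on very few counts. The arsenic libraries had 17, 2, and 5 counts and the non-treated libraries 3, 0, and 0. The ratio of the summed counts, scaled to library size, was 8.63, with an exact 95% interval of 2.62 to 44.8 that covers counting error only. The adjusted p was 0.0462, and the call was lost without arsenic replicate 1, without non-treated replicate 2 or 3, and without the filter on low counts. Cadmium libraries of the same time had 19, 2, and 4 counts and mercury libraries 3, 7, and 9, and neither metal was called.

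Mercury at 24 h lowered 6 of the 9 tested members, and the lowest LFCs were those of TUBA1A and TUBB4B. The median LFC of the members was -0.50, against -0.02 over all genes, of which 13.9% were called lower. TUBA1A measured 201, 165, and 173 CPM against 320.1, 269.8, and 355 CPM, an LFC of -0.81 ± 0.10 (adjusted p = 4.04e-10). TUBB4B measured 485, 486, and 488 CPM against 864, 874, and 796 CPM, an LFC of -0.80 ± 0.10 (adjusted p = 1.91e-09). The mercury libraries were below every non-treated library for both genes. TUBB6 followed with 372, 364, and 403 CPM against 639.7, 748, and 529 CPM, an LFC of -0.75 ± 0.11 (adjusted p = 1.16e-07). TUBB measured 2523, 2514, and 2502 CPM, an LFC of -0.71 ± 0.13 (adjusted p = 1.07e-05).

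The LFCs of the abundant α isotypes were closer to 0. TUBA1B was at 4999, 5105, and 4922 CPM, an LFC of -0.27 ± 0.09 (adjusted p = 0.0127), and TUBA1C at 2266, 2255, and 2243 CPM, an LFC of -0.21 ± 0.08 (adjusted p = 0.0526). TUBG1 was at 116, 117, and 100.2 CPM, an LFC of -0.50 ± 0.11 (adjusted p = 4.0e-04). TUBB2A stood apart from the β members called lower at this time, with 96.0, 126, and 105 CPM against 109, 109.8, and 104 CPM and an LFC of 0.02 ± 0.13 (95% interval -0.22 to 0.27, adjusted p = 0.914). All 6 mercury calls at 24 h were kept in every alternative setting and with every library left out.

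Cadmium at 24 h gave no member call, with 2.19% of all genes called in either direction. The median LFC of the members was -0.13, against -0.01 over all genes. Apart from TUBB2B, the LFC farthest from 0 was that of TUBB, -0.26 (95% interval -0.51 to -0.01, adjusted p = 0.363), followed by TUBA1A with -0.26 (-0.44 to -0.07, adjusted p = 0.178). TUBB4B was at 778, 698, and 945 CPM, on both sides of the 796 to 874 CPM of the non-treated libraries, with an interval of -0.26 to 0.13. At an unadjusted p under 0.05 in edgeR, 3 members differed, a number that cannot be weighed because the share of all genes at this threshold was not counted. DESeq2 called no member after adjustment.

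**Figure D2:**
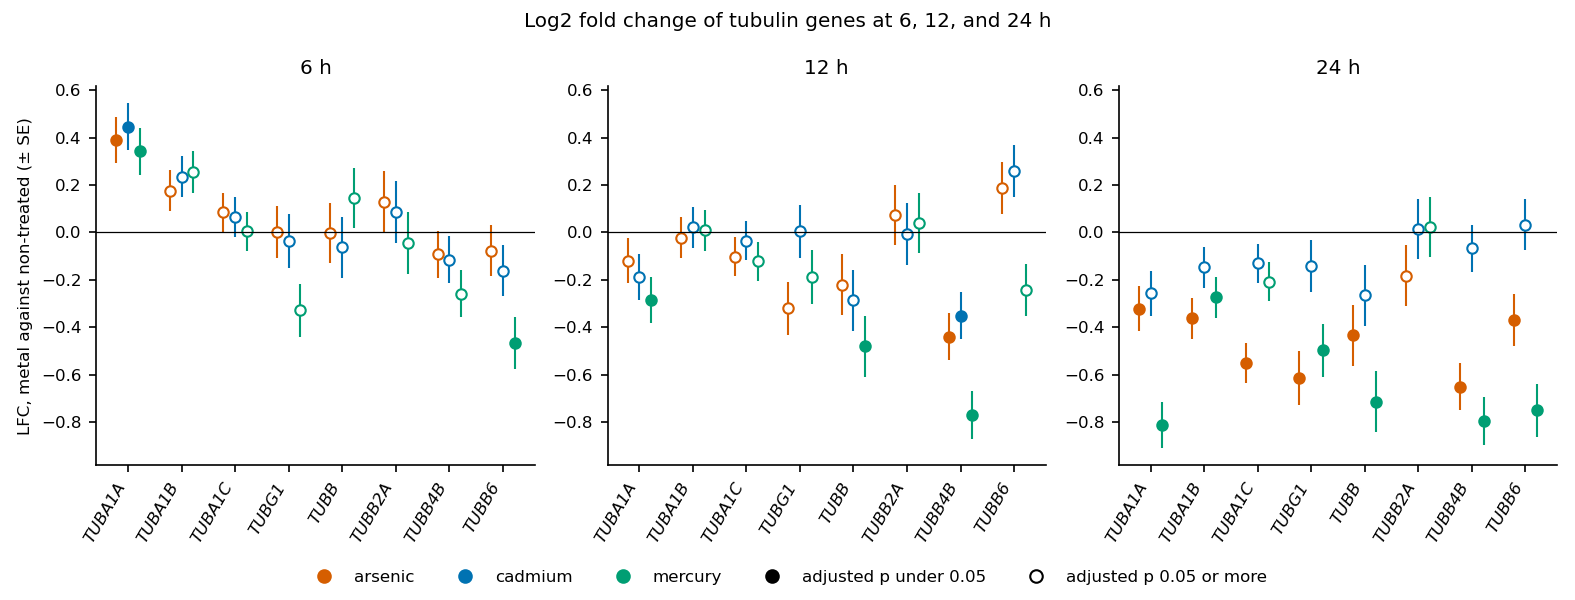
Log2 fold change against time-matched non-treated libraries (vertical axis, ± SE) of 8 tubulin genes at 6, 12, and 24 h of arsenic, cadmium, or mercury, with filled points for an adjusted p under 0.05 in edgeR. At 24 h the arsenic and mercury points are below 0 for all genes but TUBB2A in mercury (0.02), and the cadmium points are between -0.26 and 0.03.

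Compared directly, without any non-treated library, the metals differed most at 24 h. Arsenic was lower than cadmium in 4 of 9 members, TUBB4B (LFC -0.58, adjusted p = 1.17e-05), TUBG1 (-0.47, adjusted p = 0.00229), TUBA1C (-0.42, adjusted p = 1.59e-04), and TUBB6 (-0.40, adjusted p = 0.00907), against 10.2% of all genes called. Cadmium was higher than mercury in 5 members, led by TUBB6 (0.78, adjusted p = 8.99e-08), TUBB4B (0.73, adjusted p = 5.17e-08), and TUBA1A (0.55, adjusted p = 1.25e-05), with TUBB at 0.45 and TUBG1 at 0.36 (adjusted p = 0.00764 and 0.0167), while 20.0% of all genes were called. Arsenic and mercury, both of which lowered most members, differed in 3 members, with 11.4% of all genes called. TUBA1A (0.49, adjusted p = 1.87e-04) and TUBB6 (0.38, adjusted p = 0.0138) were higher with arsenic than with mercury, and TUBA1C (-0.34, adjusted p = 0.00255) was lower with arsenic. Without cadmium replicate 3, the differences in TUBB6 between arsenic and cadmium and in TUBB between cadmium and mercury were lost, the former also in the fit of the 6 libraries alone (highest adjusted p 0.213), and that in TUBG1 between cadmium and mercury was lost without cadmium replicate 2 or mercury replicate 3. The difference in TUBB6 between arsenic and mercury was lost in 3 fits without 1 library (highest adjusted p 0.0763), and those in TUBA1A and TUBA1C were kept in all.

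Every earlier direct call was between mercury and another metal. TUBB was higher with arsenic than with mercury at 1.5 h by an LFC of 0.48 (adjusted p = 0.0335, 1.56% of genes called), a call lost in 5 of 6 fits without 1 library. At 6 h only TUBB6 differed, higher with arsenic than with mercury by 0.39 (adjusted p = 0.0213, 4.48% of genes called). At 12 h TUBB4B and TUBB6 were higher with arsenic than with mercury by 0.33 and 0.43 (6.84% of genes called) and higher with cadmium than with mercury by 0.42 and 0.50 (3.29% of genes called). The difference in TUBB6 between cadmium and mercury at 12 h was kept in every fit, and the others were each lost without at least 2 of the libraries left out in turn. In the other 8 direct comparisons no member was called, with 1.9% of all tests called.

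Non-treated cells also changed with time in culture. From 1.5 to 24 h, TUBB rose by an LFC of 0.43 ± 0.13 (adjusted p = 0.0418) and TUBA1A by 0.37 ± 0.10 (adjusted p = 0.0148), with 3.29% of all genes called. TUBA1A went through mean levels of 243, 221, 192, 275, and 315 CPM over the 5 time points. Neither call was stable when a library was left out, with 5 of 6 fits for TUBB and 3 of 6 for TUBA1A losing it. No member was called at 3, 6, or 12 h against 1.5 h, where 1.57% of all tests were called. TUBA1A with cadmium stayed between group means of 242 and 263 CPM at all times, so its positive LFC at 6 h and its negative LFC at 24 h went along with movement of the non-treated level.

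The effect of a metal at 24 h was compared with its effect at 6 h in the same fit, a contrast chosen after the values were seen. With arsenic it was more negative at 24 h for TUBA1A (difference in LFC -0.71, adjusted p = 3.73e-04), TUBA1C (-0.64, adjusted p = 1.86e-04), TUBG1 (-0.62), TUBB4B (-0.56), and TUBA1B (-0.54), with 3.1% of all genes called. With mercury it was more negative for TUBA1A (-1.15, adjusted p = 1.56e-08), TUBB (-0.86, adjusted p = 0.00118), TUBB4B (-0.54), and TUBA1B (-0.53), with 5.8% called. With cadmium TUBA1A alone differed (-0.70, adjusted p = 0.00192), with 0.624% called. These differences also carry the change of the non-treated libraries between both times.

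Whether the isotypes moved together was tested by counting every gene relative to TUBA1B for the α members or to TUBB for the β members in the same library. Relative to TUBA1B, TUBA1A was lower after 24 h of mercury. It had 4.01, 3.24, and 3.51 counts per 100 TUBA1B counts with mercury and 5.29, 4.51, and 5.78 in non-treated cells, an LFC of the ratio of -0.54 ± 0.11 (adjusted p = 1.3e-04). With arsenic the ratio of TUBA1A to TUBA1B was 5.18, 5.79, and 5.10, and its LFC of 0.04 had a 95% interval of -0.17 to 0.26. TUBA1C had an LFC relative to TUBA1B of -0.25 at 6 h of mercury (adjusted p = 0.0421), lost in 5 of 6 fits without 1 library, and of -0.19 (interval -0.36 to -0.02, adjusted p = 0.0819) at 24 h of arsenic. Relative to TUBA1B, 28.3% of all genes were called at 24 h of mercury, 13.6% at 6 h of mercury, and 4.48% of tests in the 13 comparisons without a member call, and any movement of TUBA1B itself enters the ratio of every gene.

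TUBB2A departed from TUBB with mercury. It had 3.81, 5.03, and 4.21 counts per 100 TUBB counts at 24 h of mercury and 2.53, 2.64, and 2.67 in non-treated cells, an LFC of the ratio of 0.73 ± 0.18 (adjusted p = 5.5e-04). At 12 h the LFC was 0.52 ± 0.18 (adjusted p = 0.0236), lost in 3 fits without 1 library. The share of all genes called relative to TUBB was 55.2% at 24 h and 29.3% at 12 h of mercury, so TUBB2A moved relative to TUBB as a large part of all genes did. TUBB2B was also called relative to TUBB at 24 h, with arsenic (27.8% of genes called) and with mercury, on the low counts given above. The arsenic call was lost without arsenic replicate 1 and without non-treated replicate 2 or 3 (highest adjusted p 0.175), and the mercury call was kept.

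TUBB4B and TUBB6 stayed close to TUBB after 24 h of mercury. There were 19.2, 19.3, and 19.5 TUBB4B counts per 100 TUBB counts with mercury and 19.99, 21.0, and 20.5 without, an LFC of the ratio of -0.08 (95% interval -0.33 to 0.17). TUBB6 had an LFC relative to TUBB of -0.03 (interval -0.36 to 0.29). TUBB6 was higher relative to TUBB at 12 h of cadmium (LFC 0.55 ± 0.17, adjusted p = 0.0286, 8.1% of genes called), a call lost in 4 of 6 fits without 1 library. In the remaining 11 comparisons relative to TUBB no member was called, with 0.871% of tests called. Among these, at 6 h of mercury, TUBB6 had an LFC relative to TUBB of -0.57 (interval -0.89 to -0.24, adjusted p = 0.0506). That of TUBB4B was -0.39 (-0.64 to -0.14, adjusted p = 0.0988). At 12 h of mercury, TUBB4B was at -0.30 (-0.54 to -0.05, adjusted p = 0.0691) and TUBB6 at 0.23 (-0.10 to 0.56), and neither was called. The 95% intervals at 24 h of mercury bound the departure of TUBB4B and TUBB6 from TUBB, and departures within them remain possible. Whether the isotypes moved exactly alike was not tested. On simulated data for mercury at 24 h, this test called only 4 of 100 genes changed 1.5-fold and 71 of 100 changed 2-fold. These counts are not specific to TUBB4B or TUBB6.

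**Figure D3:**
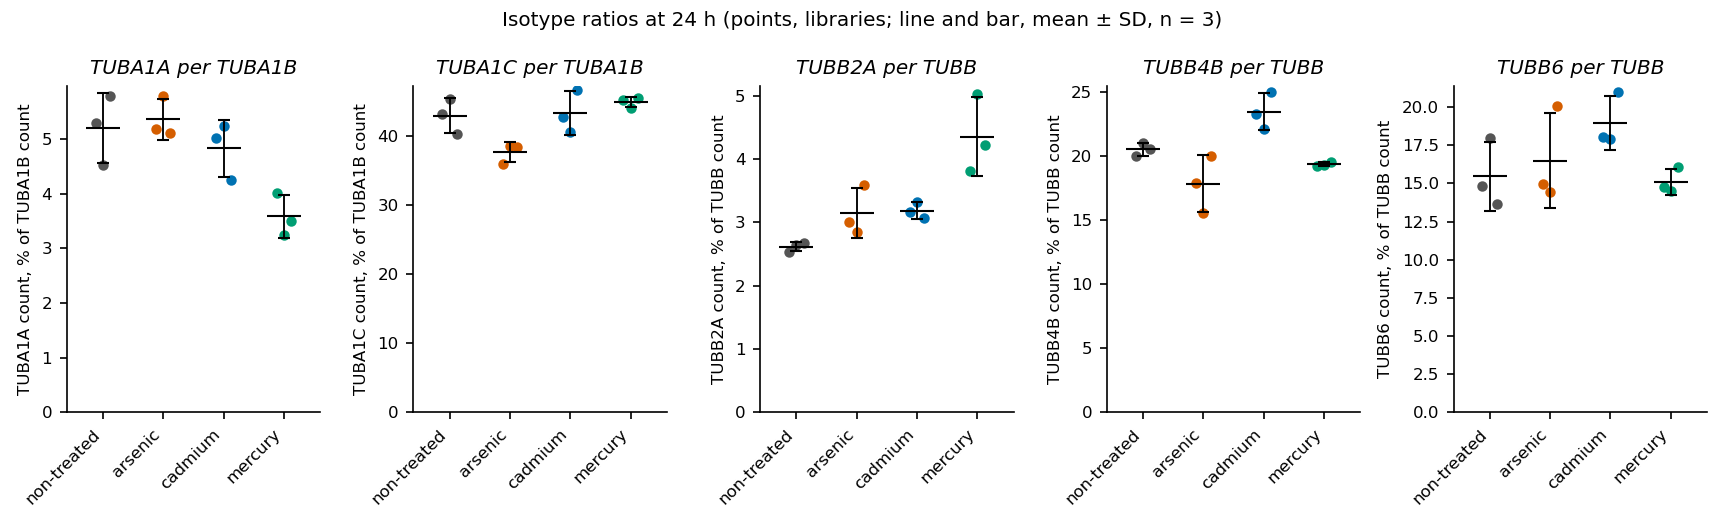
Counts of an isotype per 100 counts of the main isotype of its class at 24 h (vertical axes in %, from 0), with points for libraries and lines for the mean ± SD of 3 libraries. With mercury, TUBA1A per TUBA1B has a mean of 3.59% against 5.20% in non-treated cells and TUBB2A per TUBB 4.35% against 2.61%, while TUBB4B per TUBB is at 19.4% against 20.5%.

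The balance of α to β mRNA was also compared over the members, in a test added after the values were seen. TUBA4A, an α gene outside the members with a median of 316 CPM over all libraries, is not in the sums. The ratio of summed α to summed β counts was 2.15, 2.15, and 2.10 after 24 h of mercury and 1.51, 1.52, and 1.69 in non-treated cells, and at 12 h its mean was 2.19 with mercury and 1.61 without. The groups did not overlap at either time, yet with 3 libraries against 3 the two-sided exact permutation test cannot go below p = 0.1, which it reached, and the adjusted p over the 15 comparisons was 0.214. Groups did not overlap in 7 of the 15 comparisons, and after 1.5 h of arsenic the ratio was on the low side, with a mean of 1.45 against 1.79. With arsenic at 24 h the ratio had a mean of 1.63 and with cadmium 1.63, against 1.58. The α sum was 8975 ± 13.7 CPM (SD, n = 3) in non-treated cells, 6743 ± 54.1 CPM with arsenic, and 7443 ± 95.6 CPM with mercury. The β sum was 5711 ± 347 CPM, 4183 ± 430.1 CPM, and 3490.5 ± 12.0 CPM in the same order.

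Some isotypes deviated together between libraries of the same group, where no treatment differs, and others did not. The deviation of each of the 60 libraries from its group mean, in log2(CPM + 0.5), was compared between members, as a description. Libraries of a group also differed in depth, and the labels give no batch of preparation. TUBA1B and TUBA1C deviated together with r = 0.81, TUBA1C and TUBB4B with r = 0.78, TUBB and TUBB4B with r = 0.74, and TUBA1B and TUBB with r = 0.68. What r is usual between genes of such levels was not determined, so whether these values are high for tubulins was not tested. The library farthest above its group for TUBA1B was cadmium 12 h replicate 1. TUBG1, by contrast, had r between -0.19 and 0.11 with the other 7 members above 50 CPM. TUBB2A reached at most 0.34, and TUBA1A was highest with TUBA1B at 0.43 and lowest with TUBB6 at -0.36.

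TUBB had the widest spread within groups of these 8 members, with an SD of 0.18 on the log2 scale, larger than that of 78.8% of 3685 genes above 50 CPM, whose median was 0.15. TUBA1C had the narrowest, 0.0983. Genes outside the tubulins followed the same library differences, with the highest r to TUBB for SLC1A5 (r = 0.93), QSOX1 (r = 0.90), and NPM3 (r = 0.90), chosen after their values were seen. As the highest among 3685 genes, these values cannot be weighed against those between the 8 members. The libraries farthest below their groups for TUBB were mercury 6 h replicate 3 (-0.37), arsenic 1.5 h replicate 3 (-0.37), and cadmium 3 h replicate 3 (-0.35). The 10 genes that followed TUBB most closely within groups had a median LFC of -0.36 at 12 h of mercury, with 5 called lower and 1 higher, and of -0.25 at 24 h, with 3 lower and 2 higher, beside LFCs for TUBB of -0.48 and -0.71. At 24 h of arsenic their median was 0.00. The part of these library differences in the TUBB results was not tested.

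**Figure D4:**
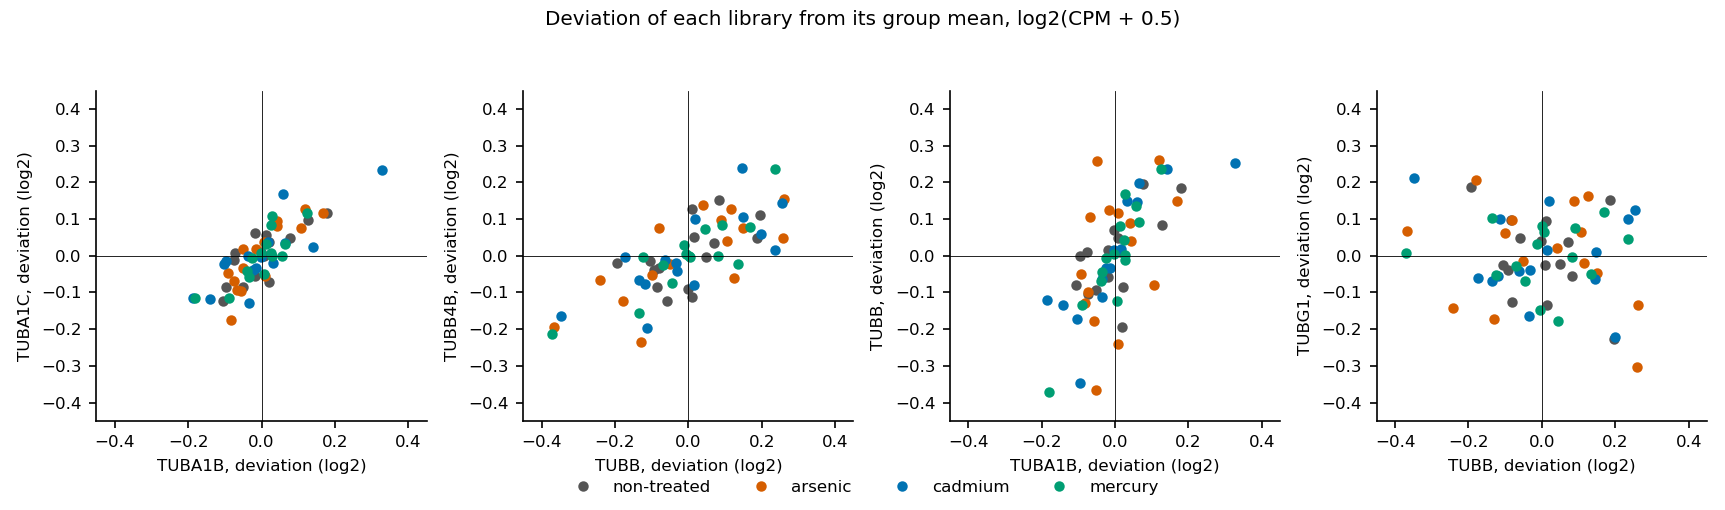
Deviation of each of 60 libraries from the mean of its group in log2(CPM + 0.5) for 4 pairs of tubulin genes (both axes), colored by treatment. TUBA1B with TUBA1C (r = 0.81) and TUBB with TUBB4B (r = 0.74) form rising clouds, TUBA1B with TUBB (r = 0.68) has a wider one, and TUBB with TUBG1 (r = -0.17) has no rising trend.

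Over the 20 group means, the genes most like TUBB among 3685 genes were DYNC1I2 (r = 0.91), CRIP2 (r = 0.90), and TAF6 (r = 0.88). For TUBA1B they were YWHAE (r = 0.82), MTPN (r = 0.79), and ANXA2 (r = 0.78). Among the members, TUBB was most like TUBA1A (r = 0.65) and TUBB4B (r = 0.62) and least like TUBB2A (r = 0.02). TUBA1B was most like TUBA1A (r = 0.60) and had r = -0.01 with TUBB4B. These values describe 20 groups, which share libraries of common time points and control levels.

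Of 12 genes listed for tubulin autoregulation, all tested, 1 was called higher and none lower at 24 h of arsenic and of mercury, and none with cadmium. Of all genes, 6.54% were called higher with arsenic and 13.9% with mercury, so the count is close to that of genes at large. The gene called was CNOT8, a catalytic deadenylase subunit of CCR4-NOT, which rose from 33.1, 17.5, and 36.0 CPM to 52.7, 67.7, and 61.3 CPM with mercury (LFC 1.06 ± 0.20, adjusted p = 2.35e-05) and by 0.58 ± 0.20 with arsenic (adjusted p = 0.0437). TTC5 was measured at 14.1, 11.7, and 15.3 CPM in non-treated cells and 9.73, 15.5, and 18.1 CPM with mercury at 24 h, with an LFC of 0.07 ± 0.30 (adjusted p = 0.888), a depth at which only large changes could be seen.

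Of 11 tested tubulin folding genes, 2 rose and 2 fell at 24 h of mercury, where 13.9% of all genes were called in each direction, and 1 rose and 1 fell with arsenic, where 6.54% were called higher and 7.75% lower. The prefoldin subunit PFDN2 rose from 220.4, 227, and 269 CPM to 358, 383, and 347 CPM with mercury (LFC 0.60 ± 0.10, adjusted p = 5.09e-06), and PFDN4 rose by 0.44, while PFDN1 fell by 0.28 with mercury and by 0.40 with arsenic. Prefoldin delivers newly made actin and tubulin chains to the chaperonin that folds them. Of the 9 γ-tubulin ring complex genes, 3 fell at 24 h of mercury, against 13.9% of all genes, namely TUBGCP6 (-0.996, adjusted p = 0.0463), TUBGCP2 (-0.52, adjusted p = 0.00414), and MZT2B (-0.39, adjusted p = 0.0107), and MZT2B fell with arsenic (-0.35, adjusted p = 0.0389). The level of TUBGCP6 was low, with a median of 10.4 CPM over all libraries.

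Among 5 tested tubulins outside the members, TUBA4A went against them. It rose from 326, 332, and 306 CPM to 457, 431, and 487 CPM at 24 h of mercury, without overlap, with an LFC of 0.51 ± 0.09 (adjusted p = 1.02e-05), and by 0.31 at 12 h (adjusted p = 0.0149). TUBA4A is an α isotype found in many tissues. The δ-tubulin gene TUBD1, a component linked to centrioles, fell at 24 h with arsenic (LFC -1.14 ± 0.31, adjusted p = 0.00584) and mercury (-0.82 ± 0.30, adjusted p = 0.0309). Its level was low, with a median of 9.10 CPM over all libraries and at most 58 counts in a library. At 24 h of mercury, 1 of the 5 was called higher and 1 lower, beside 13.9% of all genes each way. With arsenic at 24 h, 1 was called lower, beside 7.75% of all genes. Mercury also gave 2 higher calls at 12 h, beside 1097 of 12341 genes, and 1 lower call at 6 h, beside 2.99%. No gene of this list was called with cadmium, where 2.19% of all genes were called at 24 h.

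Of 21 tested microtubule-associated genes, 4 rose and 2 fell at 24 h of mercury, near the 13.9% of all genes called in each direction. STMN1, whose product sequesters tubulin dimers, fell from 2826, 2785, and 2977 CPM to 1842, 1778, and 1824 CPM (LFC -0.66 ± 0.06, adjusted p = 4.73e-13) and with arsenic by 0.25 (adjusted p = 0.00467). CKAP5, a microtubule polymerase, fell by 0.70 with mercury (adjusted p = 3.03e-07) and by 0.35 with cadmium, and MAP2, a neuronal microtubule stabilizer, had a positive LFC of 1.74 (adjusted p = 0.027) at only 5.02 to 7.25 CPM, against 0.920 to 3.08 CPM. Of 16 tested tubulin-modifying enzymes, 1 rose and 4 fell at 24 h of mercury, beside the same 13.9% each way. The polyglutamylase gene TTLL7 rose by 1.26 ± 0.25 with mercury (adjusted p = 6.45e-05) and by 0.90 ± 0.26 with arsenic (adjusted p = 0.0102), while TTLL4 (-0.81, adjusted p = 0.00125) and the deacetylase gene HDAC6 (-0.71, adjusted p = 0.0433) fell with mercury. Levels were low for TTLL7 and HDAC6, with medians of 15.6 and 12.9 CPM over all libraries.

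Of the markers of dividing cells (MKI67, TOP2A, CCNB1, CDK1, and PLK1), all but CDK1 were also called lower in some comparison, CCNB1 only with mercury. CDK1 was not called against non-treated cells at any time, with an LFC of -0.23 (adjusted p = 0.0964) at 24 h of mercury. Mercury lowered 3 of these 5 at 6 h, when TUBB6 was lower and TUBA1A higher, and 4 at 12 h and at 24 h, against 2.99%, 7.16%, and 13.9% of all genes. Arsenic lowered MKI67 at 6 h, when TUBA1A was higher and 38 of 12341 genes were called lower, and 3 markers at 24 h, against 7.75% of all genes. Cadmium lowered MKI67 at 12 h, against 2.99% of all genes, and PLK1 at 24 h, when no tubulin was called and 78 genes were lower. Their summed level was 1783 to 1859.5 CPM at 24 h of mercury, 2424 to 2453 CPM with arsenic, 2337 to 2745 CPM with cadmium, and 2646 to 3240.3 CPM in non-treated cells. MKI67 fell from 513, 419, and 399 CPM to 221, 219, and 219 CPM with mercury (LFC -1.01 ± 0.11, adjusted p = 4.95e-11). Tubulin genes are used by dividing cells, and the part of a change in cell cycling in their levels was not tested. In bulk RNA, fewer cells of a kind and less RNA per cell cannot be told apart.

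Most astrocyte markers were at or near 0 in these cells. GFAP, AQP4, ALDH1L1, and S100B had at most 3 counts in any library, and SLC1A3 at most 13. GJA1, a gap junction gene of astrocytes and other cells, was present in every library at 10.3 to 41.6 CPM, and VIM, which many cell types express, was at 3006 to 5768 CPM. The neuron markers RBFOX3, SNAP25, and STMN2 had at most 7 counts in a library, while SYT1 was at 5.83 to 21.7 CPM and NEFL at 0 to 7.45 CPM. The summed neuron list was between 8.06 and 21.7 CPM in every library, and its ranges in the 4 groups at 24 h overlapped. Of its 2 tested genes, 1 was called higher at 6 h and at 12 h of mercury, against 4.49% of all genes at 6 h and 1097 of 12341 at 12 h. NEFL was called lower at 24 h of arsenic (LFC -4.49, adjusted p = 1.56e-05), against 7.75% of all genes. Of the 2 tested astrocyte markers, 1 was called higher at 12 h of cadmium, as were 640 of 12341 genes.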

How the data were processed

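RNA from 60 1321N1 libraries (QuantSeq 3′ mRNA-Seq FWD, 100-base single-end reads) had been aligned by the authors with STAR 2.7.9a to GRCh38 with GENCODE basic annotation version 43, and reads were counted by strand over exons with GenomicAlignments in Union mode, with primary alignments of multi-mapping reads kept. The deposited values are raw gene counts, 2215276 to 4404609 per library (median 3291417), and 92 spike-in sequences had 0 counts. Per the labels, groups were metal and time. Counts were fitted over all 60 libraries with edgeR 4.0.16 in R 4.3.3 (TMM factors 0.934 to 1.03, genes kept by filterByExpr with a minimum count of 10 and total of 15, quasi-likelihood test, Benjamini-Hochberg adjustment over 12341 genes and a threshold of 0.05). CPM values used these library sizes. Isotype ratios were tested in the same way with the count of TUBA1B or TUBB as the library size. No replicates were alike enough to be 1 library (lowest chi-square per degree of freedom 2.00). On simulated counts for mercury at 24 h, 37 of 100 genes changed 1.5-fold and 87 of 100 changed 2-fold were called, with 10 of 11645 unchanged genes. Few genes were changed there, while 13.9% were called in each direction in the data. The simulated counts therefore do not give the power of the real test. Intervals of counts cover counting error only.

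The alternatives were RLE size factors, DESeq2 1.42.0, no filter, a filter of 50 counts in 3 libraries (8581 genes), a replicate block, a fit of the 6 compared libraries, and each library left out. The difference of effects between 24 and 6 h, the deviations within groups, and the test of the α to β ratio were added after the data had been seen. The members and gene lists were chosen with earlier results of these data known. Named were all members, of each list the 3 tested genes with the largest absolute LFC at 24 h among those called with any metal, and the 3 genes most like TUBB and TUBA1B over group means of at least 50 CPM. TTC5, the marker genes, and the genes most like TUBB within groups were named outside this rule, the last after their values were seen.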

Additional observations from a re-analysis of the deposited data

Results flagged for a closer look

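The members listed here differed between metals, or between times of 1 metal, by a test of the difference itself in edgeR. In the direct comparison of arsenic with mercury, the LFC was 0.48 for TUBB at 1.5 h, 0.39 for TUBB6 at 6 h, 0.33 for TUBB4B and 0.43 for TUBB6 at 12 h, and 0.49 for TUBA1A, -0.34 for TUBA1C, and 0.38 for TUBB6 at 24 h. In that of cadmium with mercury, it was 0.42 for TUBB4B and 0.50 for TUBB6 at 12 h, and 0.45 for TUBB, 0.73 for TUBB4B, 0.55 for TUBA1A, 0.36 for TUBG1, and 0.78 for TUBB6 at 24 h. In that of arsenic with cadmium at 24 h, it was -0.58 for TUBB4B, -0.42 for TUBA1C, -0.47 for TUBG1, and -0.40 for TUBB6.

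The effect at 24 h minus the effect at 6 h was -0.56 for TUBB4B, -0.54 for TUBA1B, -0.71 for TUBA1A, -0.64 for TUBA1C, and -0.62 for TUBG1 with arsenic. It was -0.70 for TUBA1A with cadmium, and -0.86 for TUBB, -0.54 for TUBB4B, -0.53 for TUBA1B, and -1.15 for TUBA1A with mercury.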

How the results depend on the processing

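Of the 23 member calls against non-treated cells, 12 were kept in every alternative. No call against non-treated cells, between metals, over time in non-treated cells, or of an isotype ratio changed direction in the alternatives run for it, and the list genes and the differences between 24 and 6 h were not rerun. Over the 5 time points, members called higher with arsenic numbered 2, and 1 with the filter of 50 counts or with only the 6 libraries compared. Members called lower with cadmium numbered 1, and 2 without a filter. Members called higher with mercury numbered 1, and 2 with RLE size factors, with DESeq2, or without a filter. With 1 library left out at a time, the counts ranged from 6 to 9 lower and 1 to 3 higher with arsenic, 0 to 2 lower and 0 to 1 higher with cadmium, and 8 to 11 lower and 0 to 2 higher with mercury. Direct differences ranged from 3 to 4 between arsenic and cadmium, 5 to 7 between arsenic and mercury, and 6 to 8 between cadmium and mercury, changes over time in non-treated cells from 0 to 3, and isotype ratios from 0 to 1 with arsenic, 0 to 1 with cadmium, and 4 to 7 with mercury, where only libraries of 6, 12, and 24 h were left out. The cause was not tested. With the replicate number as a block, 2 members instead of 1 were called higher with mercury. The numbers did not pair the libraries, since the correlation of same-numbered deviations was -0.28 to 0.084 over 45 pairs of libraries. Genes of few counts, such as TUBB2B, limit what can be seen at this depth.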
